A study of Homo sapiens with 6 samples.

Results

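The 63 genes described here encode the cytosolic factors that start and extend protein chains on the ribosome, with the enzymes named after them. They were taken from a table of 61806 genes as the symbols beginning EIF or EEF and a number. Of 222 rows with such a symbol, 159 were set aside. Most were pseudogenes, with names that hold a hyphen (such as read-through and antisense genes), EIF6, EEF1E1 and 1 Y-linked paralog. EIF4EBP1, EIF4EBP2 and EIF4EBP3, the eIF4E inhibitor genes, are not pseudogenes but were set aside too, because their symbols end in P and a number. By symbol, 4 members belonged to the EIF1 group, 15 to EIF2, 14 to EIF3, 13 to EIF4, 5 to EIF5, 9 to EEF1 and 3 to EEF2. EIF4E1B had between 0 and 5 counts in the libraries and was not tested, which left 62 members in the comparison.

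The RNA came from 293T cells, a widely used line of human embryonic kidney origin into which plasmids are easily brought. In 3 libraries the cells had been given a plasmid labelled GFP-812 with a lipid reagent, and in the other 3 a plasmid labelled GFP, the fluorescent tag alone, in the same way. The series title names truncated NEK1, a protein kinase, while the labels leave the name GFP-812 unexplained, give no time after transfection and no origin of the replicates in separate cultures. Values in 3 libraries of a group are given in the order of replicates 1, 2 and 3. The line carries a viral large T antigen in both groups alike, and the share of cells that took up either plasmid is not given.

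In translation initiation, eIF4E binds the cap of the mRNA, eIF4G holds it to the eIF4A helicase, and eIF3 joins this complex to the small ribosomal subunit, on which eIF2 has placed the initiator tRNA. After eIF1 and eIF1A have helped to find the start codon, eIF5 triggers GTP hydrolysis by eIF2 and eIF5B joins the large subunit. In elongation, eEF1A delivers each aminoacyl-tRNA and eEF2 moves the ribosome along by a codon. Many mRNAs for elongation factors and ribosomal proteins start with a C and a run of C and T bases, the terminal oligopyrimidine (TOP) tract, which ties their translation to the mTOR kinase pathway.

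The TOP tract divides these genes into mRNAs of the ribosomal protein kind and others, so the start regions of the members that the results turn on are shown here. Each line gives 10 bases before and 20 bases from the annotated first base, on the gene's own strand, from RefSeq (GRCh38.p14). Capitals mark a C at the first base with at least 4 further bases that are each C or T. All lower case means that the window holds no such tract.
EEF1A1: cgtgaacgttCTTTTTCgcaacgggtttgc
EEF1B2: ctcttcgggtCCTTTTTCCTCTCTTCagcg
EEF2: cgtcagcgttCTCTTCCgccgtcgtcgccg
EIF4B: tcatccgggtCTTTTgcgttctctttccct
EIF3F: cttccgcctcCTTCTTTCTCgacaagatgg
EIF3D: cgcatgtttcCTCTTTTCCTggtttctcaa
EIF4A2: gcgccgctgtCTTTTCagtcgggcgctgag
EIF2S3: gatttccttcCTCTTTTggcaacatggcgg
EIF2S3B: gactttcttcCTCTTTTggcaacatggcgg
EEF1G: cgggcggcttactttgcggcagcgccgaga
EIF4G3: ttttccgagcagccgtcctgccggactgct
EIF5: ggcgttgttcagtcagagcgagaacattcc
These windows lie at chr6:73521013-73521042 (EEF1A1, minus strand), chr2:206159885-206159914 (EEF1B2, plus strand), chr19:3985444-3985473 (EEF2, minus strand), chr12:53006446-53006475 (EIF4B, plus strand), chr11:7987327-7987356 (EIF3F, plus strand) and chr22:36529147-36529176 (EIF3D, minus strand). The others lie at chr3:186783567-186783596 (EIF4A2, plus strand), chrX:24054946-24054975 (EIF2S3, plus strand), chr12:10505880-10505909 (EIF2S3B, plus strand), chr11:62573872-62573901 (EEF1G, minus strand), chr1:21176878-21176907 (EIF4G3, minus strand) and chr14:103334227-103334256 (EIF5, plus strand). EEF1B2 and EIF2S3B each had a further annotated start without a tract, and both starts listed for EIF4G3 and both for EIF5 had none. At the start shown, EIF2S3B, a copy of EIF2S3, had the same 7-base tract.

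For the members, start regions on chromosome 8 were left out, so EEF1D, EIF3E and EIF3H were not examined. No such filter was applied to all entries or to the ribosomal protein genes. Of the 63 members, 50 matched one of the remaining RefSeq starts, and 13 of these (26%) had a tract at 1 start or more. Counted by start region, 19.7% of the members' 66 entries had one, beside 4.07% of all 35116 entries. Of 69 cytosolic ribosomal protein genes, 69.6% had a tract at 1 start or more. A textbook list of TOP mRNAs holds 9 members (EEF1A1, EEF1B2, EEF1D, EEF1G, EEF2, EIF3E, EIF3F, EIF3H and EIF4B). Of these, 6 had an entry that was used and 5 of them a tract, EEF1G being the exception. EEF1D, EIF3E and EIF3H were the ones left out. The other 8 members with a tract were EIF2A, EIF2D, EIF2S3, EIF2S3B, EIF3D, EIF3K, EIF3M and EIF4A2. A match describes the letters at an annotated start and does not show that the mRNA begins there in these cells.

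The libraries held 14255148 to 17613814 counts. NEK1, the check of the plasmid label, stood at 563, 518 and 494 FPKM (counts scaled to the exonic length of the gene and the library total) in the GFP-812 libraries and at 3.82, 3.99 and 3.91 FPKM in the GFP libraries. Of the epithelial markers, KRT8 (8.95 to 10.8 FPKM) and KRT18 (14.5 to 16.4 FPKM) were present, while EPCAM, CDH1 and KRT19 reached at most 1.19, 0.74 and 0.27 FPKM. Of the kidney lineage genes, LHX1 was at 1.37 to 2.04 FPKM and PAX2 at 0.34 to 0.7 FPKM, and PAX8 reached at most 0.04 FPKM. Of the neuronal markers, NEFL (27.4 to 35.0 FPKM) and NEFM (52.5 to 71.9 FPKM) were present and NEFH and TUBB3 reached at most 0.13 and 0.11 FPKM. Of the fibroblast markers, VIM was at 115 to 127 FPKM and COL1A1 at 1.34 to 1.76 FPKM, while COL1A2 and DCN reached at most 0.01 and 0.02 FPKM, and the leukocyte gene PTPRC was at 0 in each library. GFP replicate 3 stood apart from the other GFP libraries in several of the gene groups. The GFP libraries also varied more in general. Between pairs of them the chi-square per gene was 3.14 to 4.03, against 2.13 to 2.34 between pairs of GFP-812 libraries. Over the members tested, GFP replicate 2 had the median log2 CPM deviation farthest from the mean of all libraries (-0.038, against 0.019 in GFP replicate 3).

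The mRNAs of the translation factors took nearly the same share of the counts in both groups. The share was 2.23%, 2.26% and 2.24% in the GFP-812 libraries against 2.22%, 2.2% and 2.29% in the GFP libraries. The exact 95% binomial interval of each share was narrow (2.22% to 2.24% in GFP-812 replicate 1) and covers counting error only. GFP replicate 3 was the highest of the 6, while GFP replicates 1 and 2 were both below all GFP-812 libraries. In bulk RNA, less RNA per cell and fewer cells that express a gene cannot be told apart.

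Of the 62 members tested, EIF4G3 and EIF5 fell and no member rose at an adjusted p under 0.05 in edgeR's quasi-likelihood test over all genes. The 2 members that fell were 3.23% of those tested, beside 2.67% of all 16834 genes tested that were lower in GFP-812. For higher calls the members gave 0%, beside 1.18% of all genes. At an unadjusted p under 0.05, 12 of the 62 members passed, beside 2717 of all 16834 genes. Both shares of calls were near the background, so the count by itself is not a result about these genes.

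The median log2 fold change of GFP-812 against GFP was 0.022 over the members and 0.0069 over all genes tested, with 36 members above 0 and 26 below. The members' FPKM did not overlap between the groups for 5 genes that were higher (8.06% of members, 7.93% of all genes) and 10 that were lower (16.1% of members, 12.1% of all genes). The higher ones were EEF1AKMT1, EIF2S3, EIF3E, EIF4A1 and EIF4E2. The lower ones were EIF1AX, EIF2S1, EIF3A, EIF3J, EIF4ENIF1, EIF4G1, EIF4G2, EIF4G3, EIF5 and EIF5B. The medians by factor were -0.039 for EIF1, -0.00093 for EIF2, 0.037 for EIF3, 0.030 for EIF4 and -0.049 for EIF5. They were 0.055 for EEF1 and 0.11 for EEF2. The EEF2 group holds 3 genes, and EEF2 itself was at -0.03, with EEF2K at 0.12 and EEF2KMT at 0.11.

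**Figure D1:**
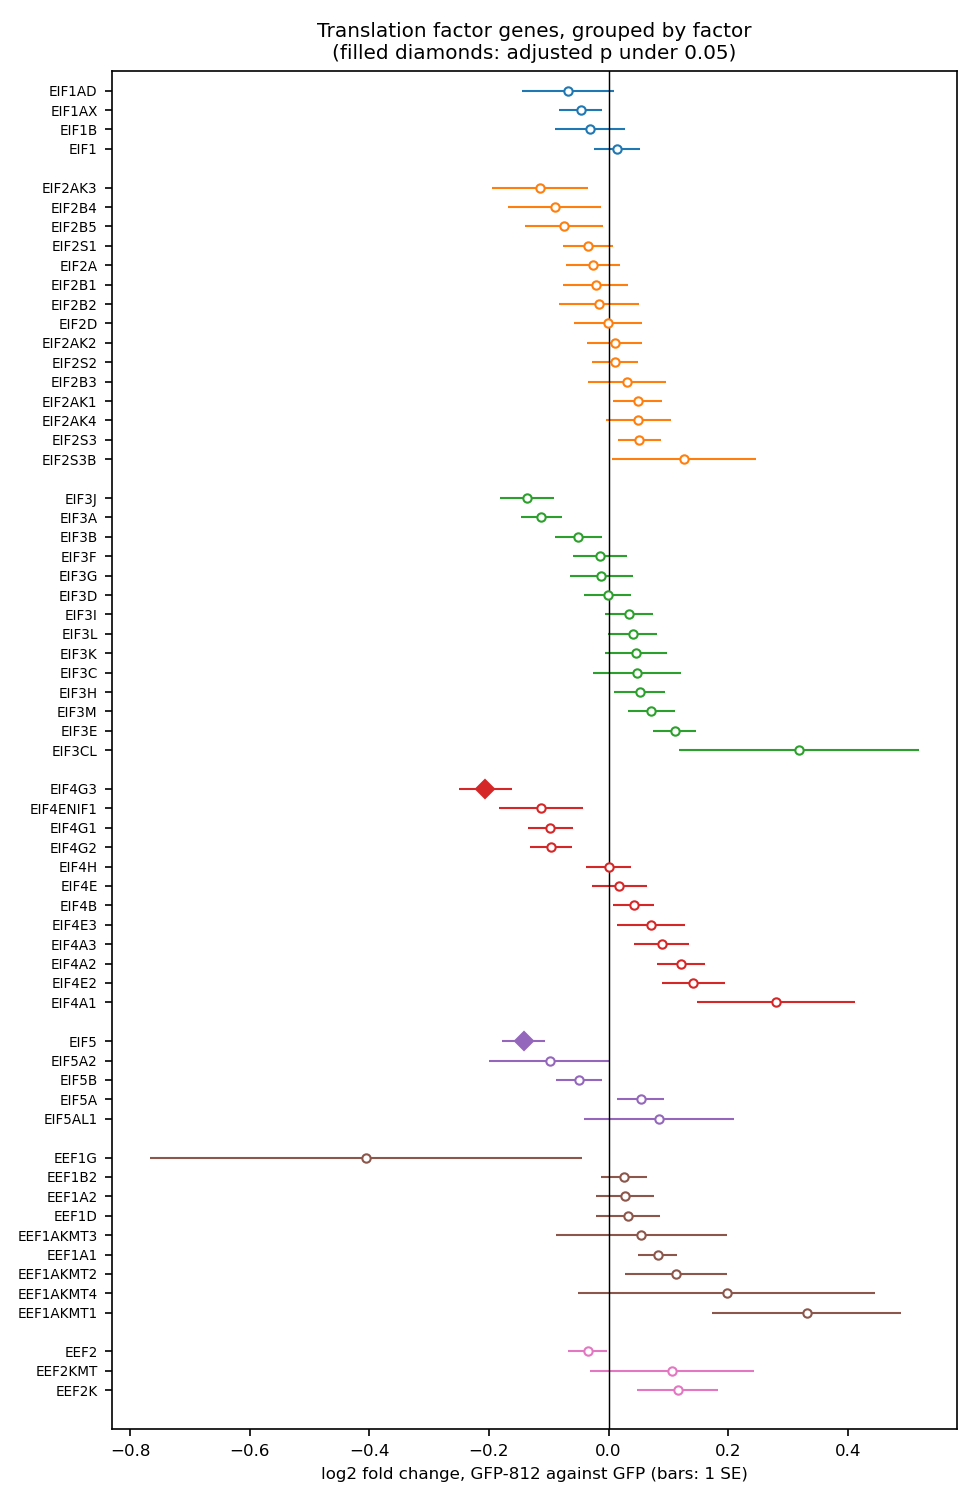
Log2 fold change of GFP-812 against GFP for the 62 members tested, 1 row per gene, grouped and coloured by factor, with bars of 1 standard error from edgeR (3 libraries per group). The filled diamonds are EIF4G3 (-0.21) and EIF5 (-0.14); most other members lie close to 0, and the widest bar belongs to EEF1G.

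With GFP replicate 3 left out, more members passed the same test. EEF1A1, EIF3E and EIF4A2 were then called higher, which is 4.84% of members beside 2.94% of all genes. EIF3A, EIF3J, EIF4G1, EIF4G2, EIF4G3 and EIF5 were called lower, which is 9.68% of members beside 4.69% of all genes. Without GFP-812 replicate 2, no member was called in either direction, beside 62 higher and 147 lower calls among 17265 genes. At an unadjusted p under 0.05, 9 of the 62 members passed in that fit. The share over all genes in that fit was not computed, so this count is not a result about the members. EIF4G3 alone was called when GFP-812 replicate 3 or GFP replicate 1 was left out, beside 208 of 17243 and 185 of 17358 genes called lower. The number of calls over all genes moved as well, from 647 with the 6 libraries to 1317 without GFP replicate 3 and 209 without GFP-812 replicate 2.

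The eIF4 group held the clearest differences, and its parts lay on different sides of 0. EIF4G3 (ENSG00000075151, hg38 chromosome 1, 20806292 to 21177285, minus strand) encodes a member of the eIF4G scaffold family, which bridges the cap-binding protein, the helicase and eIF3. Its level was 14.98, 14.2 and 14.5 FPKM in GFP-812 and 17.6, 17.3 and 15.9 FPKM in GFP libraries. All GFP-812 libraries were below all GFP libraries, and GFP replicate 3 was the GFP library nearest to them. The mean was 14.6 ± 0.39 FPKM in GFP-812 and 16.9 ± 0.93 FPKM in GFP libraries (SD, n = 3 each). In edgeR, which rescales the libraries by TMM, EIF4G3 fell by 13.3% (log2 fold change -0.21, SE 0.045, adjusted p = 0.0023). It passed in 5 of the 6 fits that left out 1 library, and without GFP-812 replicate 2 its adjusted p was 0.071 in edgeR.

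The other eIF4G genes had values on the same side without passing the test. EIF4G2, whose protein lacks the cap-binding site of the family and serves cap-independent initiation, was at 123, 117 and 119 FPKM in GFP-812 and at 132, 129 and 125 FPKM in GFP libraries (log2 fold change -0.10, edgeR adjusted p = 0.12). EIF4G1, the main scaffold, was at 64.6, 63.6 and 61.1 FPKM in GFP-812 and at 70.1, 66.9 and 67.3 FPKM in GFP libraries (log2 fold change -0.10, edgeR adjusted p = 0.14). The groups did not overlap for either gene. EIF4ENIF1, which encodes a shuttling and repressor partner of eIF4E, was likewise lower in each GFP-812 library (5.91, 6.30 and 6.05 FPKM, against 6.78, 6.66 and 6.48 FPKM), with an edgeR adjusted p of 0.44.

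The 3 eIF4A genes, which encode the DEAD-box helicase and the related exon junction protein eIF4A3, had fold changes above 0. EIF4A2 was at 51.1, 53.5 and 55.2 FPKM in GFP-812 and at 47.6, 49.4 and 51.3 FPKM in the GFP libraries (log2 fold change 0.12, edgeR adjusted p = 0.077). Only GFP-812 replicate 1 overlapped GFP libraries, lying just under GFP replicate 3. EIF4A3 was at 30.0, 27.9 and 26.4 FPKM in GFP-812 and at 26.8, 26.2 and 26.9 FPKM in GFP libraries, so that GFP-812 replicate 3 lay among the GFP libraries. None of the 3 genes passed the test.

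EIF4A1 was listed at only 2.48, 1.91 and 2.04 FPKM in GFP-812 and 1.83, 1.72 and 1.77 FPKM in GFP libraries (log2 fold change 0.28, SE 0.13, edgeR adjusted p = 0.27). EIF4A1 is the main helicase gene in most growing cells. In the GENCODE release 29 annotation, 48.6% of its exonic bases are shared with another gene on the same strand. In the table a row without a symbol spans 100% of EIF4A1, and the read-through gene SENP3-EIF4A1 spans 95.3% of it, with 14 to 38 counts per library. Whether the counting set aside reads that fall on more than 1 gene is not given in the sources used here. The pseudogene EIF4A1P10 was at 22.8, 17.5 and 18.7 FPKM in GFP-812 and at 17.8, 19.0 and 19.5 FPKM in GFP libraries, and reads of the 2 may have been split. The part of either in the low level was not tested.

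The cap-binding genes EIF4E, EIF4E2 and EIF4E3 showed no called difference. EIF4E was at 27.8, 29.1 and 27.9 FPKM in GFP-812 and at 28.1, 28.96 and 27.5 FPKM in GFP libraries, and the groups overlapped throughout. EIF4E2, which encodes a related protein that represses translation of the mRNAs it binds, was at 7.74, 8.21 and 7.59 FPKM in GFP-812 and at 7.13, 7.25 and 7.14 FPKM in GFP libraries. Each GFP-812 library was above each GFP library for EIF4E2, with an edgeR adjusted p of 0.13. The helicase cofactors EIF4B (166 to 178 FPKM) and EIF4H (69.6 to 71.5 FPKM) had log2 fold changes of 0.04 and 0.00022.

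**Figure D2:**
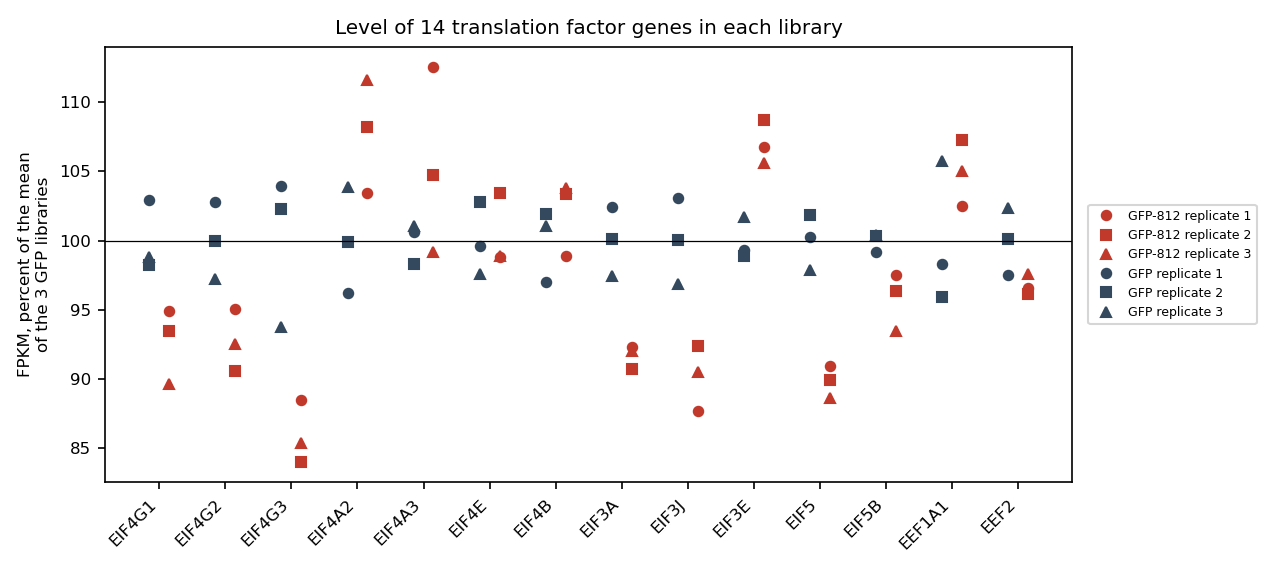
FPKM of 14 members in each library as a percent of the mean of the 3 GFP libraries (vertical axis), with GFP-812 in red and GFP in dark blue, and replicates 1, 2 and 3 as circles, squares and triangles. The 3 eIF4G genes, EIF3A, EIF3J, EIF5 and EIF5B have all red points under all blue points. EIF3E has all red points above, and EIF4A2, EIF4A3, EIF4E, EIF4B, EEF1A1 and EEF2 overlap.

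EIF5 (ENSG00000100664, hg38 chromosome 14, 103333544 to 103345025, plus strand) encodes the GTPase-activating factor that acts on eIF2 once the start codon has been found. It was at 67.8, 67.1 and 66.1 FPKM in GFP-812 and at 74.8, 76.0 and 73.0 FPKM in GFP libraries. The gap between the groups was wider than the range within either group. The mean was 67.0 ± 0.86 FPKM in GFP-812 and 74.6 ± 1.5 FPKM in GFP libraries (SD, n = 3 each). In edgeR, which rescales the libraries by TMM, EIF5 fell by 9.36% (log2 fold change -0.14, SE 0.036, adjusted p = 0.013). The call was lost in edgeR when GFP-812 replicate 2 (adjusted p = 0.12), GFP-812 replicate 3 (0.15) or GFP replicate 1 (0.073) was left out, while the log2 fold change stayed between -0.16 and -0.13.

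EIF5B, the subunit-joining GTPase, was at 46.8, 46.2 and 44.8 FPKM in GFP-812 and at 47.6, 48.1 and 48.2 FPKM in GFP libraries. The groups did not overlap, but the difference was small (log2 fold change -0.05, edgeR adjusted p = 0.56). EIF5A, the hypusine-carrying factor that relieves stalled ribosomes, ranged from 159 to 178 FPKM with overlapping groups and a log2 fold change of 0.05. Its paralogs EIF5A2 (3.04 to 4.11 FPKM) and EIF5AL1 (2.56 to 3.14 FPKM) were low, had log2 fold changes of -0.10 and 0.08, and share sequence with EIF5A, so their reads may have been split. With 1 library left out, the log2 fold change of EIF5A2 ranged from -0.22 to -0.011. None of the 3 passed the test.

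The eIF3 complex is the largest of the initiation factors, and its 13 subunit genes did not all lie on 1 side of 0. Fold changes were above 0 for 7 subunits and below 0 for 6, and none passed the test. EIF3A, the large subunit on which the complex is built, was at 128, 125 and 127 FPKM in GFP-812 and at 142, 138 and 135 FPKM in GFP libraries (log2 fold change -0.11, SE 0.035, edgeR adjusted p = 0.053). EIF3J, a loosely bound subunit that contacts the decoding site, was at 45.5, 47.9 and 47.0 FPKM in GFP-812 and at 53.5, 51.9 and 50.3 FPKM in GFP libraries (log2 fold change -0.14, edgeR adjusted p = 0.078). For both genes all GFP-812 libraries were below all GFP libraries.

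EIF3E, a subunit on the opposite side of 0, was at 18.9, 19.2 and 18.7 FPKM in GFP-812 and at 17.6, 17.5 and 18.0 FPKM in GFP libraries (log2 fold change 0.11, edgeR adjusted p = 0.065). Here all GFP-812 libraries were above all GFP libraries. Without GFP replicate 3, the edgeR adjusted p was 0.0020 for EIF3A, 0.016 for EIF3J and 0.0078 for EIF3E, with log2 fold changes of -0.13, -0.16 and 0.12. With any other single library left out, none of these genes passed. Their edgeR adjusted p was then 0.051 to 0.295 for EIF3A, 0.10 to 0.34 for EIF3J and 0.12 to 0.31 for EIF3E. The remaining 10 subunits lay between log2 fold changes of -0.05 (EIF3B) and 0.07 (EIF3M). EIF3D, which can bind the cap of certain mRNAs itself, was at 89.0, 91.8 and 90.0 FPKM in GFP-812 and at 93.6, 87.0 and 92.8 FPKM in GFP libraries, a log2 fold change of -0.0014.

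EIF3C and its copy EIF3CL are near-identical, so the counting could split their reads. EIF3CL was at 1.98, 1.49 and 1.56 FPKM in GFP-812 and at 1.56, 0.94 and 1.55 FPKM in GFP libraries, with overlapping groups and an edgeR adjusted p of 0.45. EIF3C was at 5.20 to 6.14 FPKM, far under most other subunits of the same complex. EIF3CL was lower still, and the part of shared reads in the low level of EIF3C was not tested.

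The level of an eIF3 subunit depended on the length by which its counts were divided. On the FPKM scale, which uses the summed exonic size listed in the table, EIF3A was at 132.5, EIF3E at 18.3 and EIF3F at 9.69, as means over the 6 libraries. The listed exonic size of EIF3E is 37761 bases, while its principal GENCODE mRNA has 1543 bases. With the same counts divided by the length of the principal mRNA, EIF3A was at 142, EIF3E at 448 and EIF3F at 117. The order of EIF3A and EIF3E was thus opposite on the 2 scales, while the fold change between groups does not depend on the length. Among the elongation factors the same step moved EEF1A1 from 678 to 2964 and EEF2 from 517 to 658.

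**Figure D3:**
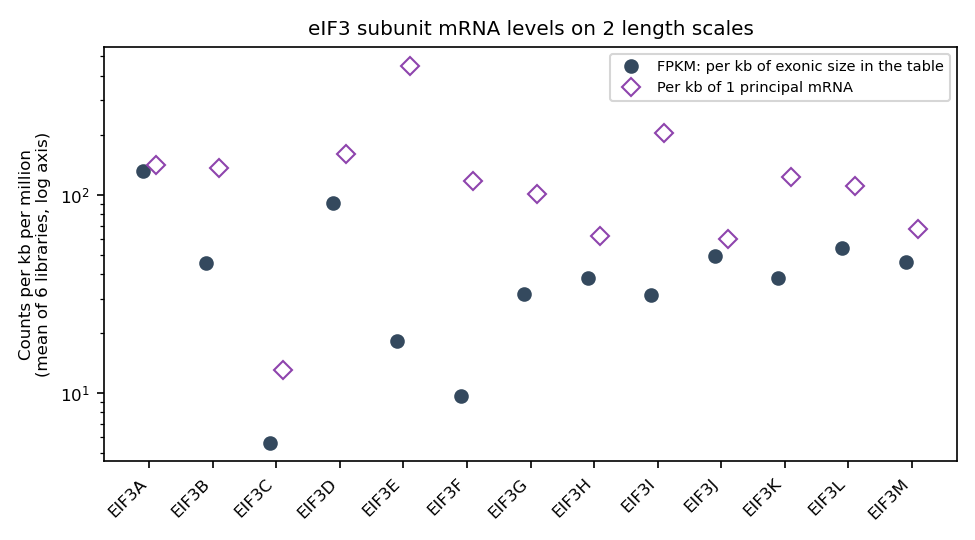
Mean level of the 13 eIF3 subunit mRNAs over the 6 libraries, in counts scaled to length and library total on a log axis. Filled circles divide by the exonic size in the table (FPKM) and open diamonds by 1 principal mRNA; EIF3A has 132.5 and 142, and EIF3E has 18.3 and 448.

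The genes of start codon recognition and of initiator tRNA delivery showed no called difference. EIF1, which guards start codon choice, was at 94.6, 96.4 and 94.96 FPKM in GFP-812 and at 94.4, 93.7 and 97.6 FPKM in GFP libraries (log2 fold change 0.01). EIF1AX was at 129, 132 and 126 FPKM in GFP-812 and at 135, 133 and 135 FPKM in GFP libraries. The groups for EIF1AX did not overlap, but the log2 fold change was only -0.05 and the edgeR adjusted p was 0.56. EIF1AD, an eIF1A-domain protein, was at 9.16 to 10.8 FPKM with overlapping groups and a log2 fold change of -0.07.

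The 3 eIF2 subunit genes were tightly matched between groups. EIF2S3, which encodes the GTP-binding gamma subunit, was at 159, 160 and 161 FPKM in GFP-812 and at 150, 159 and 159 FPKM in GFP libraries. The groups did not overlap, yet GFP replicates 2 and 3 lay within 1 FPKM of the lowest GFP-812 library, and the log2 fold change was 0.05 (edgeR adjusted p = 0.51). EIF2S2, the beta subunit gene, ranged from 136 to 147 FPKM (log2 fold change 0.01). EIF2S1, the alpha subunit gene whose protein is phosphorylated in stress, was at 37.1, 37.4 and 37.3 FPKM in GFP-812 and at 39.0, 37.9 and 38.6 FPKM in GFP libraries (log2 fold change -0.03). EIF2S3B, the copy shown above with the same start tract, was at 3.19 to 3.69 FPKM with a log2 fold change of 0.13 and may share reads with EIF2S3.

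The regulators of eIF2 also lay near 0. The eIF2B complex recharges eIF2 with GTP, and its 5 subunit genes had a median log2 fold change of -0.022, with 1 above 0 and 4 below. The 4 kinase genes that phosphorylate eIF2 alpha ranged from EIF2AK3 (PERK, the sensor in the endoplasmic reticulum), at -0.11, to EIF2AK4 (GCN2, the sensor of amino acid shortage), at 0.05. EIF2AK3 was at 1.84, 1.59 and 1.51 FPKM in GFP-812 and at 2.01, 1.71 and 1.66 FPKM in GFP libraries, with overlapping groups and a log2 fold change of -0.20 to -0.02 with 1 library left out. None of these 9 genes passed the test, and the lowest edgeR adjusted p among them was 0.50.

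Among the elongation factors, EEF1A1 encodes the most abundant translation factor of the cell and was the highest member on the FPKM scale. It was at 679, 710.3 and 695 FPKM in GFP-812 and at 651, 635 and 700.1 FPKM in GFP libraries. GFP replicates 1 and 2 were below the GFP-812 libraries, while GFP replicate 3 lay among them. The log2 fold change was 0.08 (SE 0.032, edgeR adjusted p = 0.15), and it was 0.12 without GFP replicate 3 (edgeR adjusted p = 0.00029). With any other single library left out, the edgeR adjusted p of EEF1A1 was 0.19 to 0.51. Reads of EEF1A1 can also match its many processed pseudogenes. The most abundant of these, EEF1A1P5, was at 239, 235 and 242 FPKM in GFP-812 and at 219, 217 and 229 FPKM in GFP libraries (log2 fold change 0.12, edgeR adjusted p = 0.070). All GFP-812 libraries were above all GFP libraries for EEF1A1P5, and without GFP replicate 3 its edgeR adjusted p was 0.0071. With any other single library left out EEF1A1P5 was not called, and its edgeR adjusted p reached 0.25.

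EEF2, the translocase, was at 508, 505 and 513 FPKM in GFP-812 and at 513, 527 and 538 FPKM in GFP libraries. Its highest GFP-812 library just passed its lowest GFP library, and the log2 fold change was -0.03 (edgeR adjusted p = 0.65). EEF2K, the kinase that inhibits eEF2, was at 6.25, 7.37 and 7.54 FPKM in GFP-812 and at 6.53, 7.19 and 6.03 FPKM in GFP libraries. EEF2KMT, which encodes the lysine methyltransferase of eEF2, ranged from 2.66 to 3.42 FPKM. Both overlapped between groups, with log2 fold changes of 0.12 and 0.11.

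The subunits of the eEF1B exchange factor, which reloads eEF1A with GTP, did not differ detectably. EEF1B2 was at 195, 201 and 195 FPKM in GFP-812 and at 194, 189 and 203 FPKM in GFP libraries (log2 fold change 0.03). EEF1G was at only 0.61, 0.36 and 0.41 FPKM in GFP-812 and 0.87, 0.45 and 0.52 FPKM in GFP libraries, from 15 to 37 counts per library. In the GENCODE annotation 99.9% of the exonic bases of EEF1G are shared with another gene on the same strand, and a row without a symbol spans all of it in the table. Its log2 fold change of -0.40 had an SE of 0.36 (edgeR adjusted p = 0.63) and ranged from -0.65 to -0.06 with 1 library left out, and the part of the shared bases in its low level was not tested.

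The 4 genes for lysine methyltransferases of eEF1A all had fold changes above 0, with a median of 0.16. They were lowly expressed, between 2.11 and 5.82 FPKM. EEF1AKMT1 was at 5.12, 5.82 and 5.5 FPKM in GFP-812 and at 4.48, 4.21 and 4.5 FPKM in GFP libraries. All GFP-812 libraries were above all GFP libraries, but with an SE of 0.16 the log2 fold change of 0.33 did not pass (edgeR adjusted p = 0.28). This gene group was formed after the values had been seen.

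The TOP list and the tracts shown at the start allowed the members to be set beside the ribosomal protein mRNAs. Of 86 cytosolic ribosomal protein genes tested, 25 (29.1%) rose and none fell, with a median log2 fold change of 0.11, against 1.18% of all genes called higher. RPL23, which had the smallest p of these, was at 148, 152 and 151 FPKM in GFP-812 and at 134, 129.8 and 143.5 FPKM in GFP libraries (log2 fold change 0.16, edgeR adjusted p = 0.0041, and 0.074 without GFP-812 replicate 2). GFP replicate 3 was the GFP library nearest to the GFP-812 libraries. Without it 75 ribosomal protein genes were called higher in edgeR, and with any other single library left out 3 to 12 were. Of the 9 members on the TOP list none passed, with a median log2 fold change of 0.033. Without GFP replicate 3, EEF1A1 and EIF3E of this list were called higher and its median was 0.054. With any other single library left out, none of the list was called in edgeR.

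By library, the order of the TOP list members resembled that of the ribosomal protein genes. The median deviation of log2 CPM from the 6-library mean was 0.052, 0.062 and 0.059 for the ribosomal protein genes in the GFP-812 libraries, against -0.08, -0.14 and 0.047 in the GFP libraries. For the TOP list members it was -0.0019, 0.042 and 0.016 in GFP-812 and -0.048, -0.066 and 0.039 in GFP libraries. In both lists GFP replicates 1 and 2 were the lowest libraries and GFP replicate 3 lay near or among the GFP-812 libraries. For the other 53 members tested it was 0.005, 0.016 and -0.0065 in GFP-812 and 0.0068, -0.037 and 0.018 in GFP libraries, where only GFP replicate 2 stood lower. The part of GFP replicate 3 in these patterns was not tested beyond leaving it out.

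**Figure D4:**
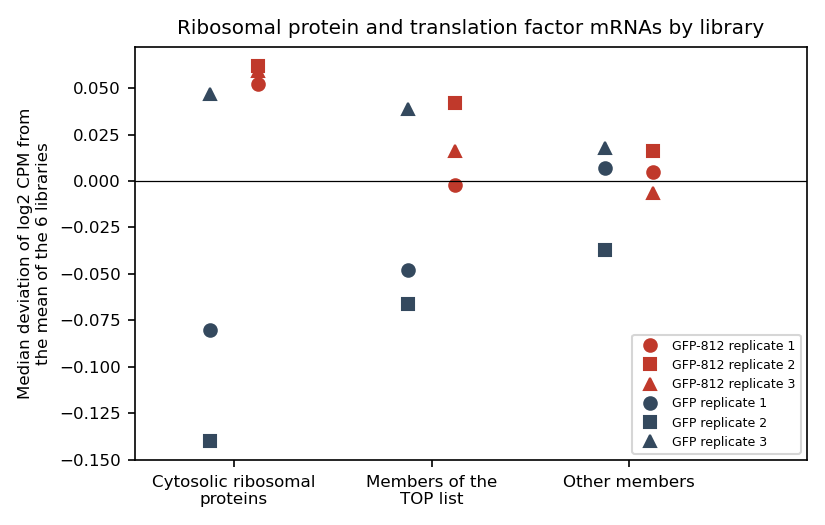
Median deviation of log2 CPM from the mean of the 6 libraries for 86 cytosolic ribosomal protein genes, the 9 members on the TOP list and the other 53 members, 1 point per library (GFP-812 red, GFP dark blue; circles, squares and triangles for replicates 1, 2 and 3). GFP replicate 3 sits at 0.047 and 0.039 in the 2 left columns, apart from GFP replicates 1 and 2.

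Grouped by the tract itself, the 13 members with one had a median log2 fold change of 0.042, with 8 above 0 and 5 below. The 36 tested members with a RefSeq start that was used and no tract had a median of -0.019, with 17 above 0 and 19 below. They included both EIF4G3 and EIF5. Members without a RefSeq start that was used were in neither set. Besides EEF1D, EIF3E and EIF3H, they included EIF3A (log2 fold change -0.11) and EEF1AKMT1 (0.33). Within the first set EIF4A2 had the lowest edgeR adjusted p, 0.077. A difference between the sets was not tested.

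Shorter members tended to have higher fold changes, as did shorter genes in general. Over the 62 members, log2 fold change and the log2 length of the principal mRNA had a Spearman correlation of -0.28 and a Pearson correlation of -0.22, and over 13438 protein-coding genes -0.17 and -0.099. The points share the same 6 libraries and are not independent. The 19 members under 2 kb had a median log2 fold change of 0.054 (0.043 for all protein-coding genes of that length), and the 16 members of 4 kb or more had -0.0031 (-0.025 for all). The 27 members of 2 to 4 kb had a median of 0.00022 (0.0011 for all). Of the 16 long members, 8 (50%) were below 0, beside 58.6% of all protein-coding genes of that length. EIF4G3, with a principal mRNA of 5762 bases, and EIF3A, with 6646 bases, were among the long ones. EIF5, with 3417 bases, was not.

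A list of other translation genes gave 3 calls. It mixes regulators and partners of the members with other factors of translation, among them ETF1, ABCE1, EEFSEC, EIF6 and EEF1E1. Of the 36 genes listed, 35 were tested, none rose and 3 (8.57%) fell, beside 2.67% of all genes. The median log2 fold change was -0.016. PPP1R15A (GADD34), the stress-induced subunit that directs a phosphatase to eIF2 alpha, was at 17.2, 16.8 and 15.2 FPKM in GFP-812 and at 23.0, 18.9 and 24.1 FPKM in GFP libraries. All GFP-812 libraries were below all GFP libraries, and GFP replicate 2 was the GFP library nearest to them. PPP1R15A fell by 0.42 on the log2 scale (SE 0.068, edgeR adjusted p = 5.3e-05), the largest fall among the genes of this list, and was called with any 1 library left out.

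MTOR, the kinase that controls TOP mRNA translation and the eIF4E inhibitors, was at 10.3, 9.44 and 10.2 FPKM in GFP-812 and at 11.5, 11.8 and 10.5 FPKM in GFP libraries (log2 fold change -0.16, edgeR adjusted p = 0.047). RPS6KB1, the S6 kinase gene downstream of it, was at 16.4, 16.1 and 16.5 FPKM in GFP-812 and at 18.9, 19.2 and 17.3 FPKM in GFP libraries (log2 fold change -0.17, edgeR adjusted p = 0.031). The groups did not overlap for either kinase gene, and GFP replicate 3 was again the nearest GFP library. Of the 6 fits that left out 1 library, RPS6KB1 was called only without GFP replicate 3 (edgeR adjusted p = 0.00097), and MTOR only without GFP replicate 3 (0.0012) or GFP-812 replicate 1 (0.043). With upper-quartile scaling neither was called (adjusted p 0.080 for MTOR and 0.054 for RPS6KB1), and MTOR was not called in DESeq2 (0.070) or with a mean FPKM of at least 1 (0.051). ATF4, the transcription factor whose translation rises when eIF2 alpha is phosphorylated, was at 192, 195 and 194 FPKM in GFP-812 and at 185, 182 and 194 FPKM in GFP libraries (log2 fold change 0.06, edgeR adjusted p = 0.41). EIF4EBP1, the gene of the best known eIF4E inhibitor, was at 56.0, 53.3 and 50.9 FPKM in GFP-812 and at 49.0, 47.5 and 49.0 FPKM in GFP libraries. Its groups did not overlap, and the edgeR adjusted p was 0.24.

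The factors of mitochondrial translation, which serve a separate ribosome, gave no call among 10 genes tested, with a median log2 fold change of -0.0092. The 2 with the smallest p were MTRF1L (log2 fold change -0.12, edgeR adjusted p = 0.49) and MTIF3 (log2 fold change 0.11, edgeR adjusted p = 0.50). Of 144 rows for pseudogenes of the members, 18 were tested and none was called. EIF3FP3, a pseudogene of EIF3F, was at 7.69, 7.55 and 7.21 FPKM in GFP-812 and at 5.82, 5.55 and 5.33 FPKM in GFP libraries (log2 fold change 0.44, edgeR adjusted p = 0.099). Its parent EIF3F had a log2 fold change of -0.01, and reads of the 2 may have been split.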

How the data were processed

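Poly(A) RNA of 293T cells was sequenced in 6 libraries, 3 per plasmid, grouped by the sample titles. The submitters' processing notes list HISAT2 2.2.1, HTSeq 0.6.1, cutadapt 1.9.1 and FastQC 0.10.1, and the build hg38. How strand and overlapping genes were treated is not given in the sources used here. The authors deposited 1 table with raw counts per gene and library. Per the file headers, it also holds FPKM; dividing each count by the exonic size and library total returned 100% of the FPKM within 0.0051.

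All genes were fitted together with edgeR 4.0.16 in R 4.3.3 (filterByExpr, TMM, group as the single term, glmQLFit and glmQLFTest). The p-values are 2-sided, adjusted by Benjamini-Hochberg over 16834 genes, with a threshold of 0.05. Standard errors were computed from the F statistic. Levels are FPKM, mean ± SD. The fits were run on simulated counts, in which the planted fold changes were larger than those of EIF4G3 and EIF5. That run therefore does not show whether differences of their size are recovered. With nothing said about separate cultures, the p-values speak only to how far these libraries varied, possibly for technical reasons. An exact permutation test of 3 against 3 cannot go below p = 0.1 and was not used.

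The members and lists were chosen with earlier results of these data known. Named were members past the threshold and, per factor group, the 2 with the highest mean FPKM and the 2 with the largest absolute log2 fold change; of other lists, those past the threshold (at most 5) or the 2 with the smallest p. Every other gene with values, and the grouping by role within a factor, was chosen after the values were seen.

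Start regions and their coordinates are from RefSeq (GRCh38.p14). Principal mRNA lengths and exon overlaps are from GENCODE release 29, and gene positions from the table. Alternatives were other scalings and filters, DESeq2 1.42.0, limma 3.58.1 (voom, and on log2(FPKM + 1) or log2(FPKM + 0.1)), the replicate number as a block, NEK1 left out, and each library left out.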

Additional observations from a re-analysis of the deposited data

How the results depend on the processing

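EIF4G3 and EIF5 were below 0 in all 17 alternatives. Both were called in each with the full set of libraries except limma on FPKM. Members called higher numbered 2 of 62 with upper-quartile scaling (280 of 16834 over all genes) and 1 of 52 with DESeq2 (119 of 8019). They numbered 2 of 62 with limma-voom (229 of 16834) and 2 of 61 with a mean FPKM of at least 1 (241 of 12984). EIF3E was always among them. Members called lower numbered 4 of 62 with library totals (575 of 16834 over all genes) and 4 of 52 with DESeq2 (342 of 8019). They numbered 4 of 62 with limma-voom (440 of 16834). With limma on log2(FPKM + 1) or log2(FPKM + 0.1) they numbered 0 of 61 (0 of 12984 over all genes). In those limma fits on FPKM, 3 and 2 genes were called in all, and EIF4G3 had adjusted p = 0.14 in both. At an unadjusted p under 0.05, 11 of 61 members passed in each of these limma fits. The share over all genes was not computed for them, so this count is not a result about the members. Of all calls, 69.4% were lower, against 54.8% with upper-quartile scaling. The other translation genes called lower numbered 1 with upper-quartile scaling and 0 with both limma fits on FPKM. The EIF2 median was 0.014 with upper-quartile scaling, -0.014 with library totals, and -0.013 and -0.014 with limma at the pseudocounts 1 and 0.1. The EIF4 median was 0.045, 0.017, 0.017 and 0.017 in the same order. Without NEK1 counts the GFP-812 share was 2.26%. Uncalled genes near 0 changed sign. EIF3D was 0.014 with upper-quartile scaling and 0.0061 with a mean FPKM of at least 1. EIF2S2 was -0.0021 with library totals and -0.0015 with both limma fits on FPKM.

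Leaving out 1 library at a time gave 209 to 1317 changed genes, 0 to 3 members higher, 0 to 6 lower, and 1 to 5 other translation genes lower. Over all genes, the higher calls ranged from 62 of 17265 to 507 of 17259, and the lower calls from 147 of 17265 to 810 of 17259. Medians ranged from -0.0018 to 0.036 over all members, -0.059 to -0.00090 for EIF1, -0.022 to 0.017 for EIF2, 0.00072 to 0.068 for EIF3, 0.017 to 0.035 for EIF4, -0.068 to -0.011 for EIF5, 0.021 to 0.094 for EEF1 and 0.036 to 0.087 for EEF2. EIF3D ranged from -0.038 to 0.021, EEF1B2 from -0.0017 to 0.054, EIF1 from -0.0018 to 0.031 and EIF2S2 from -0.022 to 0.037. Of other uncalled members, EEF2KMT ranged from 0.036 to 0.23, EEF2K from 0.055 to 0.19, EIF3CL from 0.11 to 0.44, EIF4A1 from 0.16 to 0.36 and EIF1AD from -0.11 to -0.011. Ribosomal protein genes called higher numbered 41 with upper-quartile scaling, 18 with library totals, 46 with limma-voom, 36 with the replicate block and 0 with limma on FPKM, against 25. The cause of these changes was not tested.

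The replicate numbers did not pair the libraries (correlations of same-numbered deviations 0.032, -0.01 and 0.0061, and only GFP-812 replicate 1 correlated best with its own number). With the replicate block, 777 genes were called in place of 647, 266 higher and 511 lower, and the members called were again EIF4G3 and EIF5. EEF1G had 15 to 37 counts per library, and at this depth no difference was detectable.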
